A study of Mus musculus with 6 samples.

Results

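Prostaglandins are lipid messengers made from arachidonic acid, and 10 genes of their synthesis, transport, breakdown and reception are described here in mouse embryonic fibroblast clones with or without an intact Macf1 allele. The 10 genes, found by symbol among 32028 genes with summed counts, were Ptgs1, Ptgs2, Ptges, Ptges2, Ptges3, Ptgis, Slco2a1, Hpgd, Ptger2 and Ptger4. They were chosen by role with their measured CPM difference between the genotypes in view, that of Slco2a1 being the clearest. For these 10 genes the contrast of the genotypes is therefore a description, with no p-value, and it supports nothing.

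The cells were fibroblasts from embryos of Macf1flox/+ or Macf1flox/flox mice, in which loxP sites flank part of Macf1, the gene of a giant protein that links actin to microtubules. All were immortalized with the SV40 large T antigen, and all were exposed to AAV8-CMV-Cre, a virus that drives Cre recombinase from a viral promoter. Single cells were then grown into clones. The 3 clones from Macf1flox/+ cells are called het (Macf1-/+, with 1 recombined and 1 intact allele) and the 3 clones from Macf1flox/flox cells knockout (Macf1-/-). Replicates 1 to 3 are numbered here only to name the clones, in the order B5, C6 and F1 for het and A4, A5 and A6 for knockout. The het clones, which serve as controls, also carry Cre exposure, large T and 1 lost allele. The sources used here do not give whether clones of a genotype came from separate embryos, so spreads and p-values are those between clones. Cells of the different genotypes came from different embryos, so genotype and embryo of origin cannot be told apart. Poly(A) RNA of confluent cells was sequenced, 1 library per clone.

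Libraries held 15661342 to 18209673 estimated counts, and 16217 to 17379 genes had counts in a library. Macf1 stood at 656 ± 66.6 CPM in het clones and fell to 331 ± 27.9 CPM in knockout clones (CPM, counts per 1000000 counts of a library after scaling; mean ± SD, n = 3 clones each; adjusted p = 0.00307, edgeR quasi-likelihood test). These counts cover the whole gene and not only its floxed part. Of 12745 genes tested, 28.1% were called, meaning an adjusted p under 0.05 in that test. Het replicate 1 stood furthest from the other clones of its genotype for Ptges, and knockout replicate 3 for Ptgs2. Of the 9 fibroblast markers, Vim averaged 2425 ± 350 CPM over the het and 2866 ± 1106 over the knockout clones. The other 8 summed to 1526 to 3343 CPM in het and 28.6 to 74.7 CPM in knockout clones. Col1a1 (1229 ± 245 to 7.40 ± 5.75 CPM), Col1a2 (1056 ± 786 to 0.816 ± 0.436 CPM), Col3a1, Pdgfra and Pdgfrb fell (edgeR adjusted p of 0.00128, 0.00124, 0.0241, 0.00764 and 0.0401). Dcn stood at 0.169 to 1.02 CPM in het clones and at 0 in knockout clones, Thy1 at no more than 0.0598 CPM in any clone, and Lum had no counts. Sums over the 8 endothelial markers were 2.81 to 5.08 CPM in het and 4.43 to 4.86 CPM in knockout clones, with Emcn at 0. Those over the 7 macrophage markers were 11.5 to 16.7 and 22.3 to 26.7 CPM, with Adgre1 at 0. Most of that difference was Cd14, which rose from 7.95 ± 3.44 to 18.9 ± 2.60 CPM (edgeR adjusted p = 0.0257). Cd68 (4.60 ± 1.34 and 4.22 ± 0.485 CPM) and Csf1r were not called (edgeR adjusted p of 0.787 and 0.79). Sums over the 7 epithelial markers were at most 1.24 CPM. The 7 smooth muscle and pericyte markers summed to 200.5 to 231 CPM in het and 6.26 to 7.45 CPM in knockout clones. Among them Cspg4, Tagln and Acta2 fell, and Des rose from 1.10 ± 0.409 to 3.09 ± 1.06 CPM (edgeR adjusted p = 0.0411). The part of these markers in the results was not tested. Each clone grew from a single cell, and these markers describe clones and not a mixed tissue. In the bulk RNA of a clone, fewer cells with a transcript and less of it per cell cannot be told apart.

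As background, phospholipases free arachidonic acid from membranes and the cyclooxygenases, encoded by Ptgs1 and Ptgs2, turn it into prostaglandin H2. Terminal synthases then form individual prostanoids, such as prostaglandin E2 (Ptges, Ptges2, Ptges3) and prostacyclin (Ptgis). Prostaglandins act on receptors at the cell surface, among them EP2 (Ptger2) and EP4 (Ptger4), which raise cyclic AMP. The signal ends when the transporter encoded by Slco2a1 takes prostaglandin into the cell, where the dehydrogenase encoded by Hpgd oxidizes it. Fibroblasts are a common source of prostaglandin E2 in tissues.

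The promoters of the 4 genes the values turn on are shown first, 250 bases before and 50 after the start that RefSeq gives (GRCm38.p6), each written 5′ to 3′ on the gene's own strand. Slco2a1 and Ptger4 were lower in the knockout clones, Ptgs1 was higher, and Ptgs2 varied most between them. Capitals mark matches, on either strand, to TATAAA (a core promoter box), CCAAT (bound by NF-Y), GGGCGG (GC box), CACGTG (an E-box), TGACGT (most of a cyclic AMP response element) or TGANTCA (AP-1). RefSeq places the windows at chr9:103008237-103008536 (plus strand) for Slco2a1, chr15:5244138-5244437 (minus strand) for Ptger4, chr2:36230176-36230475 (plus strand) for Ptgs1 and chr1:150099781-150100080 (plus strand) for Ptgs2.
Slco2a1: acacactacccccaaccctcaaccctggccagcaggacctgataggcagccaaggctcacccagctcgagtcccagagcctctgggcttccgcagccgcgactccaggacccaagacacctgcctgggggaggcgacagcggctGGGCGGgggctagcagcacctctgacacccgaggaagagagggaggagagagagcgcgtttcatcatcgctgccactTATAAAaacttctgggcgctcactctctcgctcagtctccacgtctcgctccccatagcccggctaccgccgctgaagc
Ptger4: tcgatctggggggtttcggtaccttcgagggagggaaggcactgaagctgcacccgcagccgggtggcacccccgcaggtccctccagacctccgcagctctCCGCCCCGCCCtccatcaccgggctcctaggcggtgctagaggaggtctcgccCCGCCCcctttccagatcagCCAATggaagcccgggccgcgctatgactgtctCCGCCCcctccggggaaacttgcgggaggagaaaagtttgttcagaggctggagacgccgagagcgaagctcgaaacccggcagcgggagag
Ptgs1: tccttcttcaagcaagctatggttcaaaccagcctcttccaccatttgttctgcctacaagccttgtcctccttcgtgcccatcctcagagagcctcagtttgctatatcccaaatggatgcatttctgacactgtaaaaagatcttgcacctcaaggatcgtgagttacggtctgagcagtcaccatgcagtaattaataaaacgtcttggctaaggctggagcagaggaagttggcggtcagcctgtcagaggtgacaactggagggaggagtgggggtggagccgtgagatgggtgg
Ptgs2: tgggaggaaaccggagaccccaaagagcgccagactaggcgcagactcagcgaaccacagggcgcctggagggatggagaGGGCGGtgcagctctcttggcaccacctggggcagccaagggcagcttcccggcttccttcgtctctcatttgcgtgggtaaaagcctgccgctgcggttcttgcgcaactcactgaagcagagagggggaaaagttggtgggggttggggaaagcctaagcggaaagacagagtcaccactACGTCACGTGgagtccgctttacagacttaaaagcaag

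The 4 windows differ in their matches. Slco2a1 has TATAAA beginning at position -29 from the start and a GGGCGG at -106. Its most abundant GENCODE transcript begins further upstream, at 103008002. In the Ptgs2 window an ACGTCA at position 13, the other strand of TGACGT, overlaps a CACGTG at position 17 by 2 bases. Ptger4 has 4 GGGCGG matches on the other strand, of which 2 overlap by 1 base, and 1 CCAAT, and Ptgs1 has 0 matches to the 6 motifs. Among all 32851 promoter windows of the same length, 13.6% hold TATAAA, 37.4% CCAAT, 35.7% GGGCGG, 7.15% CACGTG, 7.51% TGACGT and 7.81% TGANTCA. The ratio of observed to expected CpG was 0.60 for Slco2a1, 0.74 for Ptger4, 0.31 for Ptgs1 and 0.62 for Ptgs2, against a median of 0.38 over all windows. Windows were found for 9 of the 10 genes. These matches describe letters and not binding.

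Levels compared between genes need the transcript length, so CPM per kilobase of annotated transcript was used for their order. In het clones Ptges3 was highest at 79.0 ± 6.12 CPM per kilobase, followed by Ptgs2 at 31.1 ± 7.63 and Slco2a1 at 27.9 ± 2.55. Next came Ptges2 at 20.1 ± 2.11, Ptgs1 at 9.89 ± 1.94, Ptges at 8.76 ± 5.64 and Ptger4 at 1.56 ± 0.154 CPM per kilobase (SD, n = 3). The clone ranges of Ptgs2 and Slco2a1 overlapped, as did those of Ptgs1 and Ptges, and of each gene from Ptger4 on with the next (Hpgd, Ptgis, Ptger2), so these neighbours in the order were not apart beyond their spread. The transporter was thus among the most abundant of the 10 mRNAs in het clones. In knockout clones Slco2a1 stood at 0.333 ± 0.0185 CPM per kilobase, sixth in the order after Ptges at 4.50 ± 1.92, and its range overlapped that of Ptger4 at 0.263 ± 0.118. The order of the others was the same down to Ptges, but with the ranges of Ptges3, Ptgs2 and Ptges2 overlapping from 1 to the next. Ptges2 owes most of its place to a 765-base retained-intron transcript, Ptges2-203, which took 49.2% of its counts in het and 47.6% in knockout clones. This form weighs more per kilobase than the 4978-base coding one, which took 50.2% and 51.8%. Short noncoding forms also add to Ptgs1 and to Ptges, where the 703-base Ptges-201 held 11.4% of the het counts. The places of Ptges2, Ptgs1 and Ptges in the order therefore depend on such forms.

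**Figure D1:**
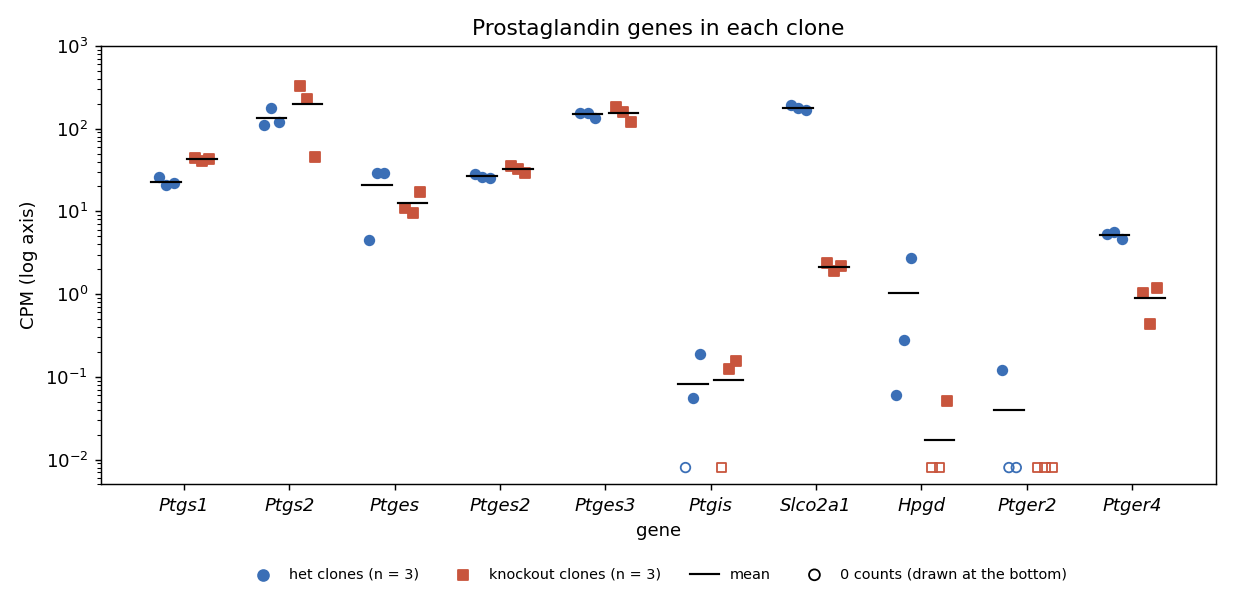
CPM of the 10 prostaglandin genes in each clone on a log axis, with het clones as circles, knockout clones as squares, the mean as a line, and clones without counts as open symbols at the bottom. Slco2a1 sits at 169 to 191 CPM in het and at 1.91 to 2.38 CPM in knockout clones, while Ptgs2 spans 45.5 to 325 CPM among the knockout clones alone.

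Of the 10 genes, 7 had enough counts to be tested. Among these 3 were called (Slco2a1 and Ptger4 lower, Ptgs1 higher in knockout clones) and 4 were not, beside 28.1% of all genes called. Clones of the genotypes did not overlap for 4 of the 7, beside 47.5% of all genes tested. Of the 4, 2 lay above and 2 below in knockout clones, beside 23.8% of all genes in each direction. In the FPKM table, which holds no Ptger4, Slco2a1 and Ptgs1 were called beside 30.1% of all genes on log2(FPKM + 1) and 29.5% on log2(FPKM + 0.1). The median log2 fold change of the 7 was 0.04, beside 0.00 over all genes tested. Since the 10 genes were chosen with this contrast known, nothing is read from these counts.

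The cyclooxygenases differed from each other in how they varied. Ptgs1 encodes COX-1, the form many cells make constantly (ENSMUSG00000047250; GRCm38 chromosome 2, 36230426 to 36252272). It stood at 25.8, 20.7 and 22.3 CPM in het replicates 1 to 3 and at 44.3, 40.4 and 43.1 CPM in knockout replicates 1 to 3. All 3 knockout clones lay above all 3 het clones, and the clones of each genotype were close together. The ratio of the means was 1.86, and the log2 fold change 0.89 with a standard error of 0.12. It lay between 0.82 and 0.98 in the 13 alternative analyses. Of the 6 other tested genes within 500 kb of Ptgs1, 4 were called higher and 0 lower, beside 13.9% and 14.2% of all genes tested, and their median log2 fold change was 0.46. The part of this neighbourhood in the Ptgs1 difference was not tested.

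Of the 5 annotated Ptgs1 transcripts, the full-length coding Ptgs1-201 (11 exons, 2867 bases) held 72.1% of the counts in het and 89.0% in knockout clones. It stood at 16.5 ± 1.85 and 37.9 ± 5.44 CPM. Ptgs1-204, a noncoding transcript that begins downstream, stood at 4.88 ± 1.03 CPM in the het and 3.17 ± 3.31 in the knockout clones. The higher level of Ptgs1 in knockout clones thus lay in the coding form. Its log2 fold change in the authors' deposited table was 1.23, and that of Ptgs1-204 was -0.60. Because these forms share exons, their separate levels are estimates.

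Ptgs2 encodes COX-2, the inducible cyclooxygenase (ENSMUSG00000032487; chromosome 1, 150100031 to 150108227). It stood at 111, 176 and 119 CPM in het replicates 1 to 3 and at 325, 228 and 45.5 CPM in knockout replicates 1 to 3. Knockout replicates 1 and 2 lay above every het clone and knockout replicate 3 lay below every one, so the genotypes overlapped. The highest knockout clone had 7.15 times the level of the lowest, against 1.59 times among het clones. On the log2(CPM + 0.5) scale this range of 2.82 among knockout clones was wider than that of 99.6% of the 10410 genes with a mean of at least 5 CPM, whose median was 0.29. No difference between genotypes was called (log2 fold change 0.56, SE 0.67). Without knockout replicate 3 it was 1.03 and called, as were 27.5% of all genes in that fit, and without knockout replicate 1 it was 0.01. Almost all Ptgs2 counts, 99.8% in het and 99.9% in knockout clones, came from the full-length transcript Ptgs2-201.

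Genes with the profile most like that of Ptgs2 over the 6 clones were sought by the root mean square difference of centred log2(CPM + 0.5), a search added for Ptgs2 and Ptges after their values were seen. Among 10409 genes the closest were Ccn1, which encodes a secreted matricellular protein, at 0.30, then Phlda1 at 0.30, Inpp4b, a phosphoinositide phosphatase gene, at 0.31, Msln (mesothelin) at 0.33 and Plk2, a polo-like kinase gene, at 0.42. Ccn1 stood at 553, 750 and 478 CPM in the het and at 1192, 987 and 319 CPM in the knockout clones. As with Ptgs2, its lowest value was that of knockout replicate 3. None of these 5 genes was called between the genotypes (adjusted p of 0.474, 0.419, 0.792, 0.687 and 0.742 in that order, edgeR quasi-likelihood test). They were picked for likeness to Ptgs2, so their lack of a call and their low value in knockout replicate 3 largely follow from the choice.

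**Figure D2:**
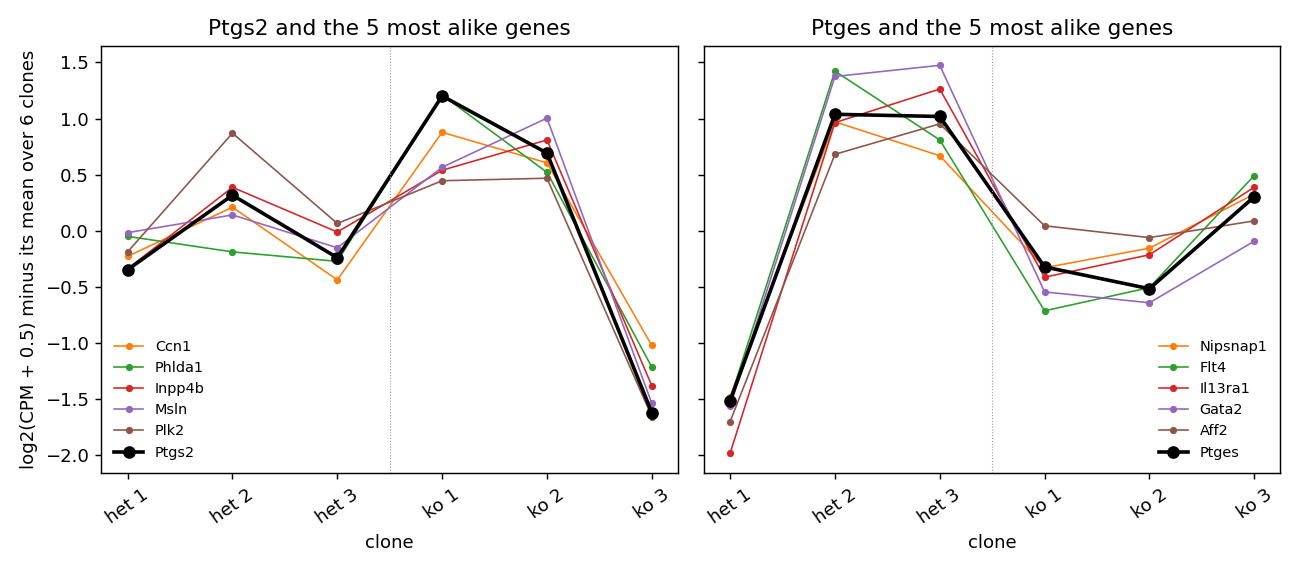
Profiles over the 6 clones of Ptgs2 (left) and Ptges (right) in black with the 5 genes most like each, as log2(CPM + 0.5) minus its mean over the clones. Lines only join the values of 1 gene (ko, knockout); Ptgs2 and its 5 genes are lowest in knockout replicate 3, and Ptges and its 5 genes in het replicate 1.

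The 3 prostaglandin E synthases were present in all clones. Ptges, the inducible microsomal synthase that works with COX-2 (ENSMUSG00000050737; chromosome 2, 30889471 to 30929863), stood at 4.55, 29.2 and 28.8 CPM in het replicates 1 to 3. In knockout replicates 1 to 3 it stood at 11.1, 9.60 and 17.3 CPM. Het replicate 1 was the lowest of all 6 clones and the other 2 het clones were the highest, so the genotypes overlapped. Within het clones the highest level was 6.42 times the lowest, a log2 range of 2.56 that exceeded that of 98.1% of genes. The log2 fold change was -0.72 (SE 0.66) and was not called. Without het replicate 1 it was -1.20 and called, as were 29.1% of all genes in that fit. Its coding transcript Ptges-202 held 87.7% of the counts in het and 92.9% in knockout clones.

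By the same measure of likeness, the genes closest to Ptges were Nipsnap1, a mitochondrial protein gene (0.21), Flt4, which encodes the VEGF receptor VEGFR3 (0.25), Il13ra1, an interleukin-13 receptor chain gene (0.26), Gata2, a transcription factor gene (0.30), and Aff2 (0.30). Il13ra1 stood at 6.82 CPM in het replicate 1 and at 56.0 and 69.1 CPM in het replicates 2 and 3, with 21.2 to 37.4 CPM in the knockout clones. Like Ptges, it was lowest in het replicate 1. The genes were picked for this likeness, so their low value in that clone follows from the choice.

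Ptges2, the gene of the second membrane-associated synthase (chromosome 2, 32395896 to 32405772), was even across clones, at 28.5, 25.7 and 25.5 CPM in het and 35.4, 32.4 and 29.3 CPM in knockout replicates 1 to 3. The knockout clones lay just above the het clones without overlap, but the difference was not called (log2 fold change 0.28, SE 0.11). Ptges, Ptges2 and Ptgis lie on the same chromosome as Ptgs1. Of 17 tested neighbours of Ptgis within 500 kb, 2 were called higher and 1 lower (median log2 fold change -0.17), beside 13.9% and 14.2% of all genes. Of 15 tested neighbours of Ptges within 500 kb, 7 were called higher and 1 lower (median log2 fold change 0.45), and of 30 neighbours of Ptges2 likewise 7 and 1 (median 0.20), beside the same 13.9% and 14.2% of all genes.

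Ptges3 encodes p23, a cytosolic synthase that is also a co-chaperone of HSP90 (chromosome 10, 128058954 to 128077272). It stood at 156, 156 and 135 CPM in het and at 183, 157 and 119 CPM in knockout replicates 1 to 3. The genotypes overlapped, and the log2 fold change of 0.04 (SE 0.16) was not called and turned negative without het replicate 3 or knockout replicate 1. A processed pseudogene, Ptges3-ps, held a further 39.6 ± 2.96 CPM in the het and 33.1 ± 5.35 in the knockout clones, and reads of the gene and its copy cannot be told apart with certainty.

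Ptges3 also has 2 coding transcripts, whose means differed in opposite directions. Ptges3-201 (8 exons) stood at 126 ± 12.3 CPM in the het and 139 ± 30.7 in the knockout clones, and Ptges3-202 (7 exons) at 22.7 ± 3.91 and 13.9 ± 2.41 CPM. The shorter form made up 15.2% of the counts in het and 9.06% in knockout clones. Its log2 fold change in the authors' deposited table was -0.68, and that of the longer one 0.18.

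Ptgis, the prostacyclin synthase gene typical of endothelium (chromosome 2, 167191805 to 167240604), was barely detected, with 0 to 0.188 CPM in het and 0 to 0.155 CPM in knockout clones. Each library held 0 to 3 counts. A floor of 3 counts corresponds to 0.155 to 0.188 CPM, so a level below this was not detectable at this depth.

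Slco2a1 encodes the prostaglandin transporter, which carries prostaglandins into the cell for breakdown (ENSMUSG00000032548; chromosome 9, 102988712 to 103096002). It stood at 191, 179 and 169 CPM in het replicates 1 to 3 and at 2.38, 1.91 and 2.17 CPM in knockout replicates 1 to 3. All knockout clones were low but none was silent, and both genotypes were tight around means of 179 ± 11.0 and 2.15 ± 0.238 CPM. The ratio of the means was 83.4. The log2 fold change of -6.38 (SE 0.13) was called and lay between -6.45 and -6.30 in the other analyses of counts. On log2(FPKM + 1) it was -4.48, a scale that understates folds to low levels. Deposited FPKM values (fragments scaled to transcript length and depth), summed over transcripts, were 27.9 ± 2.15 in het and 0.296 ± 0.0264 in knockout clones.

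Counts of Slco2a1 came mainly from the coding transcript Slco2a1-201 (14 exons, 7122 bases), which held 94.9% of them in het and 90.4% in knockout clones. It stood at 170.4 ± 9.16 and 1.94 ± 0.281 CPM. Slco2a1-203, also of 14 exons but annotated for nonsense-mediated decay, stood at 8.04 ± 4.02 CPM in the het and 0.0295 ± 0.0511 in the knockout clones, and both therefore were low in knockout clones. The retained-intron transcript Slco2a1-204 was at 0.303 ± 0.103 and 0.155 ± 0.0984 CPM, and it made up 0.169% of the counts in het and 7.24% in knockout clones. In the authors' deposited table the log2 fold changes of Slco2a1-201 and Slco2a1-203 were -6.42 and -7.80.

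The region around Slco2a1 did not share its difference as a whole. Of 8 other tested genes within 500 kb, 1 was called lower and 0 higher, with a median log2 fold change of 0.03, beside 14.2% of all tested genes called lower and 13.9% called higher. Ryk, a Wnt co-receptor gene that ends 80.4 kb before Slco2a1, stood at 221 ± 19.8 CPM in the het and 201 ± 16.4 in the knockout clones (log2 fold change of -0.13; edgeR adjusted p = 0.395). Rab6b, a Rab GTPase gene whose annotated start lies 15.8 kb after the end of Slco2a1, was the called neighbour. It stood at 24.2, 4.61 and 2.63 CPM in het and 0.672, 1.05 and 1.45 CPM in the knockout replicates (log2 fold change of -3.29 with SE 0.92; edgeR adjusted p = 0.0395). Much of this rested on het replicate 1, without which the log2 fold change was -1.77. The call did not survive leaving out any knockout clone (adjusted p = 0.134, 0.127 and 0.0908 for replicates 1, 2 and 3, edgeR) or testing without a count filter (0.0811). Amotl2, an angiomotin family gene upstream of Ryk, had a log2 fold change of 0.42 (adjusted p = 0.0713, edgeR) and passed with library totals only, with DESeq2 and without knockout replicate 3 (0.0451, 0.0354 and 0.0218).

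**Figure D3:**
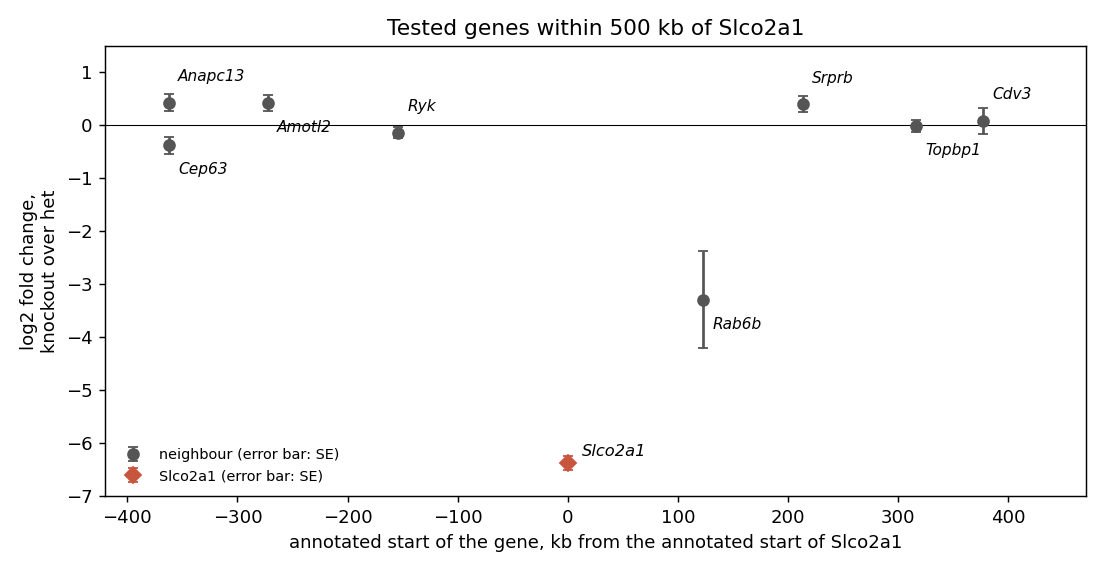
Log2 fold change (knockout over het, with SE) of Slco2a1 and the 8 other tested genes within 500 kb, against the distance of each annotated gene start from that of Slco2a1 in kb. Rab6b at -3.29 is the called neighbour, and the other 7 lie between -0.37 and 0.43.

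The genes with the profile most like Slco2a1 over the 6 clones, among 10409, were Sox12, a transcription factor gene, at a root mean square difference of 0.22, and Anxa8, an annexin gene, at 0.24. Sox12 stood at 31.8 ± 8.58 CPM in the het and 0.0172 ± 0.0299 in the knockout clones, and Anxa8 at 50.5 ± 10.4 and 0.236 ± 0.116 CPM. The third place was shared by 6 predicted genes with identical counts, Gm13691, Gm13693, Gm13694, Gm13696, Gm13697 and Gm13698 (0.25), whose reads cannot be told apart. All of these were high in every het clone and near 0 in every knockout clone, whereas Slco2a1 kept about 2.15 CPM. Because they were picked for this likeness, that pattern follows from the choice. Their log2 fold changes were -10.2 for Sox12, -7.72 for Anxa8 and -10.1 for each predicted gene, against -6.38 for Slco2a1. The 0.5 CPM added before taking logs compresses values near 0, so the measure understates these differences.

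Hpgd encodes 15-hydroxyprostaglandin dehydrogenase, which inactivates prostaglandins once they are inside the cell (ENSMUSG00000031613; chromosome 8, 56294585 to 56321043). It stood at 0.0598, 0.281 and 2.76 CPM in het replicates 1 to 3 and at 0, 0 and 0.0517 CPM in knockout replicates 1 to 3. Nearly all of it was in het replicate 3, which held 88.0% of the 50 het counts, while the knockout clones held 1 count together. The ratio of the summed counts was 51.5, with a 95% interval of 8.83 to 2075 for counting error only (exact Clopper-Pearson). This interval leaves out the spread between clones, so it says nothing about a difference between the genotypes. The gene was too low to pass the count filter of the main test. DESeq2, which applies another filter, called it beside 30.0% of all genes. Both the transporter and the dehydrogenase were thus low in knockout clones, but the dehydrogenase was also low in 2 of 3 het clones.

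Ptger4 encodes EP4, a receptor for prostaglandin E2 that signals through cyclic AMP (ENSMUSG00000039942; chromosome 15, 5206661 to 5244187). It stood at 5.39, 5.57 and 4.58 CPM in het replicates 1 to 3 and at 1.04, 0.431 and 1.19 CPM in knockout replicates 1 to 3. Every knockout clone lay below every het clone, with a ratio of the means of 5.84. The log2 fold change of -2.53 (SE 0.41) was called, and was -2.81 to -2.21 in the alternatives that held the gene. Its coding transcripts Ptger4-202 (3312 bases) and Ptger4-201 (3264 bases) took 83.3% and 14.8% of the counts in het clones. None of its 4 tested neighbours within 500 kb was called (median log2 fold change 0.39). One of them, Ttc33, overlaps the annotated Ptger4 gene by 11676 bases on the opposite strand, and stood at 19.4 CPM in the het and 23.7 in the knockout clones. The sources used here do not give whether counting used strand.

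Ptger2, the gene of EP2, the other receptor that raises cyclic AMP, had 2 counts in het replicate 1 and 0 in all other clones. Both genotypes were at or under the floor of 3 counts per library, so no fold is given. Ptger3, the gene of EP3, which lowers cyclic AMP, was at 0.00584 ± 0.0101 CPM per kilobase in het clones and at 0 in knockout clones, below Ptger4 in both genotypes.

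Beyond the 10 genes, 136 genes of the prostanoid pathway and its surroundings were listed by role, and 90 were tested. Of these, 10 were called higher and 20 lower in knockout clones, or 11.1% and 22.2%, beside 13.9% and 14.2% of all genes tested. Their median log2 fold change was -0.08. Without knockout replicate 2 the counts were 5 higher and 13 lower, beside 5.25% and 6.59% of all genes. Medians varied with role: the prostanoid reductases, the transporters and the cyclic AMP-responsive genes had medians near or below -0.7, and the other lists had medians between -0.43 and 0.02. These lists too were drawn up with earlier results known, and no test of a list as a whole was made. The same shares of all genes, 13.9% higher and 14.2% lower, stand beside each count of a list below.

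Of 15 tested genes of arachidonic acid release and re-esterification, 1 rose, 1 fell and 13 were not called, with a median log2 fold change of 0.02. Pla2g4a, the cytosolic phospholipase A2 gene that lies beside Ptgs2 on chromosome 1, had a log2 fold change of 0.16 (SE 0.20, adjusted p = 0.594, edgeR). Anxa1, which encodes annexin A1, an inhibitor of phospholipase A2, rose from 585 ± 121 to 1446 ± 350 CPM (log2 fold change of 1.31; edgeR adjusted p = 0.00931). Lpcat3, which encodes an enzyme that puts arachidonate back into phospholipids, fell from 88.9 ± 4.43 to 52.8 ± 3.22 CPM (adjusted p = 0.00262, edgeR).

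Among the other synthases and the reductases, 1 of 7 tested genes rose, 3 fell and 3 were not called, with a median of -0.98. Ptgr1, which encodes a reductase that acts on the oxidized prostaglandin after Hpgd, fell from 31.2, 34.3 and 22.6 to 3.30, 4.68 and 5.27 CPM (log2 fold change of -2.73 with SE 0.25; edgeR adjusted p = 0.000859). No knockout clone reached the lowest het clone. Zadh2, another prostaglandin reductase gene, fell from 45.3 ± 15.9 to 22.9 ± 4.34 CPM (adjusted p = 0.0377, edgeR). That call was lost when any clone but het replicate 2 was left out (adjusted p = 0.0538 to 0.115, edgeR), and without a count filter (0.0546). Cbr3, a carbonyl reductase gene, was the third to fall, but stayed under 5 CPM in every clone. Akr1b3, an aldose reductase that can form prostaglandin F2 alpha, rose from 184 ± 11.8 to 336 ± 35.7 CPM (log2 fold change of 0.87; edgeR adjusted p = 0.00328).

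Of 5 other tested transporters, 0 rose and 2 fell, with a median of -0.71. Abcc4, which encodes MRP4, a pump that exports prostaglandins, fell from 73.0, 52.8 and 65.2 to 45.6, 42.4 and 28.9 CPM (log2 fold change of -0.71 with SE 0.20; edgeR adjusted p = 0.0386). This call was lost when any clone but het replicate 2 was left out (adjusted p = 0.0544 to 0.0974, edgeR). Slco1a5, an organic anion transporter gene, was the other, with 4.47 CPM in the het and 0.133 in the knockout clones (adjusted p = 0.000739, edgeR). Among 5 other tested genes listed with the receptors, Ptgfrn rose from 241 ± 19.7 to 359.6 ± 3.83 CPM (adjusted p = 0.00789, edgeR). By its name it encodes a negative regulator of the prostaglandin F receptor and not a receptor. Ptger1, the gene of EP1, which signals through calcium, and Ppard, a nuclear receptor gene, had log2 fold changes of 0.03 and -0.04 (adjusted p = 0.89 and 0.809, edgeR), and neither of the remaining 2 was called.

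Downstream of EP4 lie the stimulatory G protein, adenylyl cyclases and protein kinase A. The list also held genes of other G protein classes, among them Gnai2, Gnai3, Gnaq and Gna11. Of its 18 tested genes, 2 rose, 4 fell and 12 were not called, with a median of -0.01. Prkaca, the main catalytic subunit of protein kinase A, fell from 149 ± 4.92 to 92.6 ± 3.35 CPM (log2 fold change of -0.69 with SE 0.08; edgeR adjusted p = 0.00226). Prkar1b, a regulatory subunit, fell from 5.57 ± 2.80 to 0.444 ± 0.0393 CPM (adjusted p = 0.00413, edgeR), and Adcy3, an adenylyl cyclase, from 21.0 ± 5.18 to 10.4 ± 1.72 CPM (adjusted p = 0.0178, edgeR). Creb1, the transcription factor that protein kinase A activates, fell from 52.9 ± 1.84 to 39.6 ± 0.439 CPM (adjusted p = 0.0139, edgeR). The call of Creb1 was lost on both FPKM scales (adjusted p = 0.294 and 0.295, limma). Without knockout replicate 1 or 2 it was lost for Creb1 (0.0526 and 0.0699, edgeR) and for Adcy3 (0.0541 and 0.0734, edgeR). The adenylyl cyclase genes Adcy6 and Adcy9 were the 2 that rose.

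Genes known to respond to cyclic AMP were lower or not called: of 16 tested, 0 rose, 7 fell and 9 were not called, with a median of -0.998. Ereg, which encodes the growth factor epiregulin, fell from 28.8, 37.9 and 57.2 to 1.53, 1.41 and 0.569 CPM (log2 fold change of -5.15 with SE 0.43; edgeR adjusted p = 0.000773). Fgf7, a fibroblast growth factor gene, fell from 135 ± 27.3 to 4.60 ± 3.97 CPM (log2 fold change of -4.85, or -5.85 when knockout replicate 3 is left out; edgeR adjusted p = 0.00429). Has2, a hyaluronan synthase gene, fell from 9.65 ± 6.30 to 0.215 ± 0.190 CPM (log2 fold change of -5.45; edgeR adjusted p = 0.00442), and its log2 fold change was -4.85 without het replicate 3 and -6.35 without knockout replicate 1. Fos, an AP-1 subunit, fell from 11.0 ± 1.53 to 3.30 ± 0.728 CPM (adjusted p = 0.00375, edgeR). Areg, Nr4a2 and Pde4d also fell. The 9 that were not called were Crem, Dusp1, Il6, Nr4a1, Nr4a3, Pde4b, Per1, Sik1 and Vegfa.

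Of 19 tested regulators of Ptgs2 transcription and mRNA decay, 4 rose, 2 fell and 13 were not called, with a median of -0.01. The parts of the interleukin-1 receptor went opposite ways. Il1r1, the ligand-binding chain, fell from 55.8, 76.0 and 93.3 to 19.5, 19.9 and 25.0 CPM (log2 fold change of -1.80 with SE 0.21; edgeR adjusted p = 0.0021), and Il1rap, its accessory chain, rose from 23.3 ± 4.50 to 58.0 ± 2.60 CPM (adjusted p = 0.00206, edgeR). The NF-kappaB gene Nfkb2 rose from 101 ± 16.2 to 161 ± 10.4 CPM and Khsrp, which encodes a protein that promotes decay of AU-rich mRNAs, from 88.0 ± 17.4 to 145 ± 3.71 CPM (adjusted p = 0.0122 and 0.0125, edgeR). Both calls were lost without knockout replicate 2 (0.0603 and 0.0578, edgeR). Rela also rose and Zfp36l2 also fell. Il1b and Tnf, which encode inducers of Ptgs2, were at most 0.0598 and 0.155 CPM.

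The leukotriene and lipoxygenase branch, which also starts from arachidonic acid, was mostly silent, with 5 of 16 listed genes tested, 1 higher and 1 lower. Aloxe3, an epidermal lipoxygenase, rose from 3.48 ± 0.428 to 11.5 ± 1.93 CPM (log2 fold change of 1.72; edgeR adjusted p = 0.00291). Ephx1, an epoxide hydrolase gene, fell from 85.6 ± 7.69 to 53.4 ± 6.86 CPM (adjusted p = 0.00977, edgeR, and 0.0531 without knockout replicate 2). Alox5 and Alox5ap, the genes of 5-lipoxygenase and its activating protein, were at most 0.125 and 0.506 CPM.

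**Figure D4:**
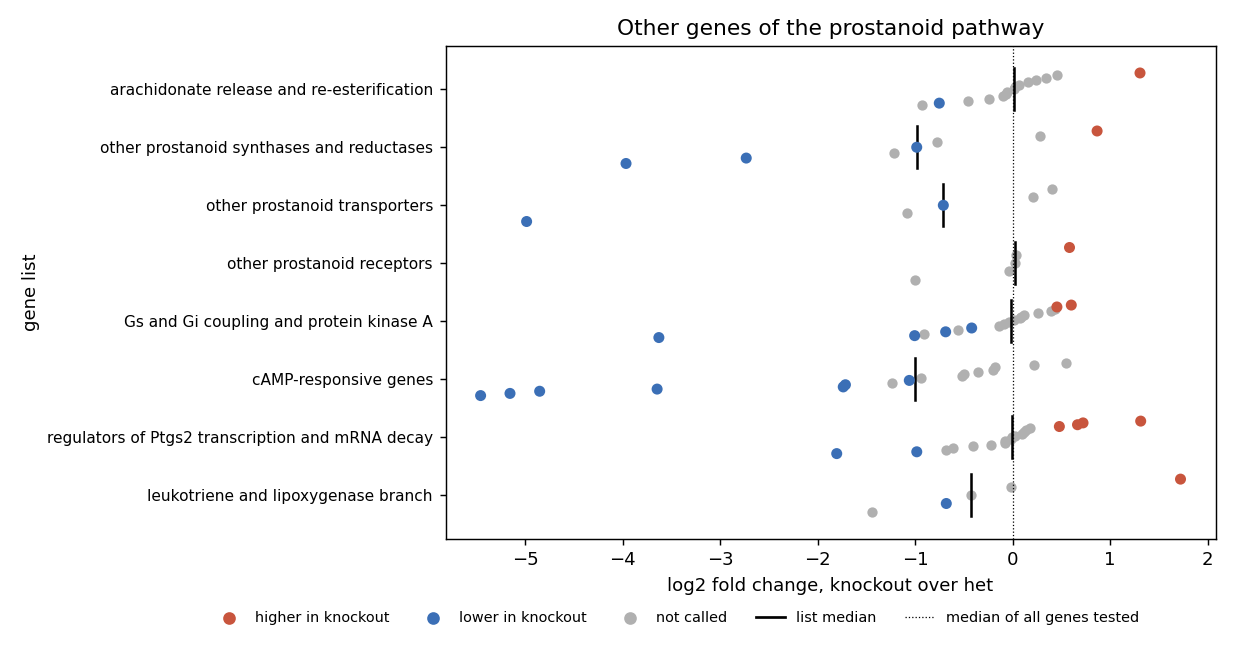
Log2 fold changes (knockout over het) of the 90 tested pathway genes outside the 10, 1 row of points per list, with called genes in colour, other genes in grey and the list median as a vertical line. Called genes of the cyclic AMP list all lie left of 0, while the regulators of Ptgs2 have 4 called genes to the right and 2 to the left.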

How the data were processed

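Trimmomatic 0.36, kallisto 0.42.5, edgeR and build GRCm38.p4 are listed, without roles, per the submitters' processing notes. Deposited by the authors were estimated counts for 96626 transcripts and FPKM values for 24799 of them. The authors' deposited table of the same comparison gives log2 fold changes and p-values per transcript, of which only the log2 values are quoted.

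Transcripts were joined to genes by the GENCODE M21 annotation of GRCm38 (95213 matched) or the authors' table (260), and 1153 were left out. Summed counts were rounded, filtered with filterByExpr (minimum 10, total 15), scaled with TMM and tested two-sided with edgeR 4.0.16 (robust quasi-likelihood) in R 4.3.3, with Benjamini-Hochberg adjustment over all 12745 genes. Standard errors came from the F statistic. DESeq2 1.42.0 and limma 3.58.1 served as alternatives. The procedure was tested on simulated data. Figures used matplotlib 3.10.9.

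The 10 genes and all lists were chosen with earlier results of these data known. Named were the 10 genes, up to 4 called genes per list with at least 5 CPM in the higher genotype and no overlap of clones, the 2 most abundant others where fewer than 2 were called, the neighbours of Slco2a1 and the genes most like it. Other genes were named after their values were seen: the Ptgs2 and Ptges likenesses, marker genes, and list members without those levels. Promoter windows are from RefSeq. A result that bears on the level of Ptger1 is not reported here.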

Additional observations from a re-analysis of the deposited data

How the results depend on the processing

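Over all genes, leaving out 1 clone moved the count of called genes from 3585 to between 1566 (no knockout replicate 2) and 3825 (no het replicate 1), with 1892 when knockout replicate 1 and 2227 when het replicate 2 was absent. Fewer samples entered each of these fits. Of the pathway genes outside the 10, between 5 and 13 were called higher and between 13 and 21 lower with 1 clone left out, against 10 and 20. The lowest counts, 5 and 13, came without knockout replicate 2, beside 5.25% and 6.59% of all genes, against 13.9% and 14.2% with all clones. Among the 10 prostaglandin genes 3 were called, beside 28.1% of all genes, and 2 to 4 in the 13 alternatives. Where that number changed, 27.5% to 30.1% of all genes were called. The FPKM table holds no Ptger4, Ptgs2 was added when knockout replicate 3 was absent, Ptges when het replicate 1 was, and Hpgd with DESeq2. Over the 47 single genes followed, 562 of 603 values kept their direction and their side of the threshold, 24 lost the call, 5 gained it and 12 changed sign. The 47 include the 6 predicted genes with identical counts. Their values repeat 1 profile that kept its direction and call throughout, which raises the number kept.

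All 12 sign changes were of log2 fold changes near 0 that were not called. With 1 clone left out, Ptges3 ranged from -0.12 to 0.18, Ppard from -0.079 to 0.011, Ptger1 from -0.064 to 0.19, Topbp1 from -0.060 to 0.056 and Cdv3 from -0.14 to 0.31. Topbp1 was 0.0080 with no filter on low counts. The cause was not tested. No paired analysis was possible because the labels give the clones no replicate numbers, and the numbers used here only name them. At this depth Ptgis, Ptger2 and Hpgd did not pass the count filter of the main edgeR fit. Without that filter edgeR fitted them too, and 3367 genes were called over all, out of a larger set than the 12745 genes of the main fit.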

Other observations

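Some listed genes that were too low or too uneven to be tested had values mainly in some or all clones of 1 genotype, picked here after they were seen. Adcy1, an adenylyl cyclase gene, stood at 5.43 and 5.84 CPM in knockout replicates 1 and 2 and at 0 in knockout replicate 3, with at most 0.239 CPM in het clones. Rgs2, which encodes a regulator of G protein signalling, stood at 6.76 CPM in het replicate 1, 0 and 0.690 CPM in het replicates 2 and 3, and at most 0.0611 CPM in knockout clones. Ptgds, a prostaglandin D synthase gene, stood at 0.733, 0.492 and 2.07 CPM in knockout replicates 1 to 3 and at most 0.169 CPM in het clones. Ptgfr, which encodes the prostaglandin F receptor, stood at 0.539, 0.225 and 0.502 CPM in het replicates 1 to 3 and at most 0.0615 CPM in knockout clones.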
